A study of Mus musculus with 2 samples.

Results

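Mitochondrial ribosomal protein genes are the nuclear genes whose products make up the small and large subunits of the mitochondrial ribosome. They were taken here as every gene of the array with a symbol that starts with Mrps or Mrpl and a number, on probes that the platform annotation pairs with exactly 1 gene symbol. This gave 65 genes on 67 probes, out of 13697 genes named in this way, with 23 genes named for the small subunit and 42 for the large. The values come from 2 arrays of mouse embryoid bodies, clumps of embryonic stem (ES) cells that differentiate in suspension. One array held RNA of bodies from Elongin A-/- ES cells and the other RNA of bodies from Elongin A+/+ ES cells, and both cultures had been given 2 µM retinoic acid, which promotes neural differentiation, for 4 days. Elongin A forms the Elongin complex with Elongin B and Elongin C and speeds RNA polymerase II along its template, and the comparison asks which transcripts differ in level between these genotypes after the treatment. The labels state neither how the Elongin A allele was disrupted nor from how many clones each line came.

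The mitochondrial ribosome translates the few messenger RNAs of the mitochondrial genome, all of which code for subunits of the oxidative phosphorylation complexes in mammals. Its RNAs are made inside the organelle, but all of its proteins are made in the cytosol from nuclear genes and imported. Some of these proteins have counterparts in the bacterial ribosome, and others are found only in mitochondria. Promoters of many nuclear genes for mitochondrial proteins are known to be bound by NRF1, GABP and YY1, transcription factors of broad expression.

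Start regions of 6 members are shown, chosen by the size of their difference or by a neighbour that shares the region. Mrpl22 and Mrps31 lay furthest higher in Elongin A-/- bodies, and Mrps33 and Mrpl53 lay furthest lower. Mrps11 shares its start region with another member, Mrpl46, and Mrps12 shares its own with Sars2, the mitochondrial seryl-tRNA synthetase gene. Each sequence is from RefSeq on GRCm38.p6, runs 5′ to 3′ on the strand of the gene, and covers 250 bases before to 30 bases after the annotated start. Capitals mark an exact match on either strand to CCGGAAG, a core bound by GABP and other ETS factors, to GCGCATG, part of the NRF1 site, or to ATGGCGG, part of the YY1 site.
Mrpl22 (chr11:58171414-58171693, plus strand): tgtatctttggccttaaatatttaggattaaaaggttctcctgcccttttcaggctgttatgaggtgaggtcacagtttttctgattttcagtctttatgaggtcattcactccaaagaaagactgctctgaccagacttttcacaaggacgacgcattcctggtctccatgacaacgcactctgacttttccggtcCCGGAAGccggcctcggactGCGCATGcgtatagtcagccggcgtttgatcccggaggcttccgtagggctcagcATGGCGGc
Mrps31 (chr8:22411090-22411369, plus strand): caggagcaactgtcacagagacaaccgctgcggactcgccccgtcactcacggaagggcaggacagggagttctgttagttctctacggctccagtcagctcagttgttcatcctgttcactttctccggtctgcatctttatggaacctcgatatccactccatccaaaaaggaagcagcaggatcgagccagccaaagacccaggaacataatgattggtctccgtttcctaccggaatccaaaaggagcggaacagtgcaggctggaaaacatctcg
Mrps33 (chr6:39810907-39811186, minus strand): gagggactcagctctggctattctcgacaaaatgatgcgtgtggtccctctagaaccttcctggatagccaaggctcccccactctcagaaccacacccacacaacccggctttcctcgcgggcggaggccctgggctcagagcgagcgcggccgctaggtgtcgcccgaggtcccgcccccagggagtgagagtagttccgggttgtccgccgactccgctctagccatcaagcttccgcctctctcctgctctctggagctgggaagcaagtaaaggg
Mrpl53 (chr6:83108858-83109137, plus strand): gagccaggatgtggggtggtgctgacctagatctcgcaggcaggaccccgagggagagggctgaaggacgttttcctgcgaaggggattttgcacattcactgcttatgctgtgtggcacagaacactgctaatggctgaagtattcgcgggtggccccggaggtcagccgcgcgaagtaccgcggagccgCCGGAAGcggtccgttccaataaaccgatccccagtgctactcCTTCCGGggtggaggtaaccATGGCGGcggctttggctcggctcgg
Mrps11 (chr7:78782881-78783160, plus strand): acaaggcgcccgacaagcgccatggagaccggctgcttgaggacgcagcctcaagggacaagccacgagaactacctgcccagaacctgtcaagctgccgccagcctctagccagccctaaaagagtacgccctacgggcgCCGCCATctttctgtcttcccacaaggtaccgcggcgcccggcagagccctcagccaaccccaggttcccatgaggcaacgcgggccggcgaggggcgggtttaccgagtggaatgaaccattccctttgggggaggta
Mrps12 (chr7:28741792-28742071, minus strand): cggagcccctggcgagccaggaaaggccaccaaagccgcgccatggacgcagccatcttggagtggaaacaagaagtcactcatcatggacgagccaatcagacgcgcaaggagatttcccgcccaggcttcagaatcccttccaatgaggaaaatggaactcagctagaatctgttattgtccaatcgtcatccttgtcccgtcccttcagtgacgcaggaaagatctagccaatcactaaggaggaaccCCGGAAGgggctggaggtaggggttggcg

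Mrpl22 held all 3 motifs and was the only member that did. Mrpl53 held CCGGAAG on both strands and ATGGCGG, Mrps12 held CCGGAAG, and Mrps11 held ATGGCGG on the opposite strand. An ATGGCGG that follows the start can also be the beginning of the coding sequence. The printed regions of Mrps31 and Mrps33 held none of the 3 motifs, which says only that these exact letters are not in these windows. RefSeq gave a start region for 57 of the 65 members, and the full windows of 300 bases, which run to 50 bases after the start, were searched. CCGGAAG was present in 19 of the 57, or 33.3%, against 9.12% of 27025 start regions of all genes in the table and 16.7% of those of 7778 measured genes. GCGCATG was present in 8 members (14.0%, against 4.04% of all and 6.88% of measured genes), and ATGGCGG in 10 (17.5%, against 4.19% and 7.34%). GCGCATG and ATGGCGG can overlap in the letters ATG, 30 members held at least 1 motif, and 27 held none. Members with CCGGAAG had a median log2 difference of 0.28 (n = 19) and members without it 0.27 (n = 38), and the other motifs gave 0.34 (n = 8) against 0.27 for GCGCATG and 0.27 (n = 10) against 0.27 for ATGGCGG. The medians with and without a motif lay close together.

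Depth on an array is its signal, and the members were bright. The floor below which a probe was treated as having only a bound was the array median, an intensity of 1.03 after quantile normalisation, and a gene was called measured when at least 1 array put it above that floor. Of 13697 genes 9568 were measured, and of the 65 members 64 were. The array of Elongin A-/- bodies had a median of 1.03 and a highest value of 3475 as deposited, and that of Elongin A+/+ bodies a median of 1.02 and a highest value of 4352. With 1 array per genotype there is no replicate check, no difference below was tested, and genotype cannot be told apart from the ES cell line, the culture or the array. The only error within the arrays is the disagreement between probes of 1 gene, an SD of 0.43 on the log2 scale (1.34-fold) over 224 genes. Eloa, the Elongin A gene itself, gave 3.57 in Elongin A-/- bodies and 3.87 in Elongin A+/+ bodies on a probe whose place relative to the disrupted part is not given, so it does not check the labels. Markers of other cell types differed by wide margins. Of 8 measured blood and endothelial markers 7 were at least 2-fold higher in Elongin A-/- bodies, bounds included (6.76% of all measured genes were). The summed intensity of this list was 162, against 10.2 in Elongin A+/+ bodies, with Cdh5 and Gata1 below the floor on both. Of 9 neural progenitor markers 6 were at least 2-fold lower (5.97% of all measured genes were), with a summed intensity of 59.7, against 152. Pax6 (log2 0.46) and, as a bound, Olig2 (0.58) went the other way. Of 5 measured pluripotency markers 3 were at least 1.5-fold lower (14.8% of all measured genes were) and 1, Dppa4, at least 1.5-fold higher (15.8%). The summed intensity of this list was 63.8, against 98.2, with Tdgf1 below the floor on both. Most of that sum and of its difference was Sox2, with 39.5 against 72.2. The other lower calls were dim, Pou5f1 with 0.927 against 1.70 (a bound) and Zfp42 with 1.48 against 4.34. The part of this shift in cell types in the differences below was not tested, and in bulk RNA fewer cells of a type and less RNA per cell cannot be told apart.

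Mitochondrial ribosomal protein transcripts were slightly higher as a group in Elongin A-/- bodies. Of 64 measured members 41 were higher by any margin (64.1%), where 48.4% of all measured genes were higher, and 23 were lower (35.9%, against 51.6% of all). The median log2 difference, Elongin A-/- minus Elongin A+/+, was 0.25 over the members and -0.02 over all measured genes. The summed intensity of the 65 members was 5115 in Elongin A-/- bodies and 4508 in Elongin A+/+ bodies, a ratio of 1.13. Changes of size were few, since 9 members were at least 1.5-fold higher (14.1%, where 15.8% of all measured genes were) and none was at least 1.5-fold lower (14.8% of all). Only Mrpl22 was at least 2-fold higher (1.56% of members, against 6.76% of all), and none was at least 2-fold lower (5.97% of all). The share of members past 1.5-fold higher is therefore near the background.

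The spread of the members was narrower than that of all genes. Their differences had an SD of 0.40, from -0.55 for Mrps33 to 1.08 for Mrpl22, against an SD of 0.73 over all measured genes. The members were brighter than most genes, with 58 of 64 above the median mean intensity of measured genes, and their median mean intensity was 66.7 against 5.72. Among the 2671 genes between the 10th and 90th percentiles of the members' level, an intensity of 14.6 to 145, the SD was 0.48, the median -0.02, and 47.8% were higher. In that range 10.6% were at least 1.5-fold higher and 7.6% at least 1.5-fold lower. Of the members, 24 differed by more than the SD between probes (37.5%, against 43.1% of all measured genes and 30.2% of those in that range of level), so for the other 40 the difference is within the disagreement of probes of 1 gene.

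**Figure D1:**
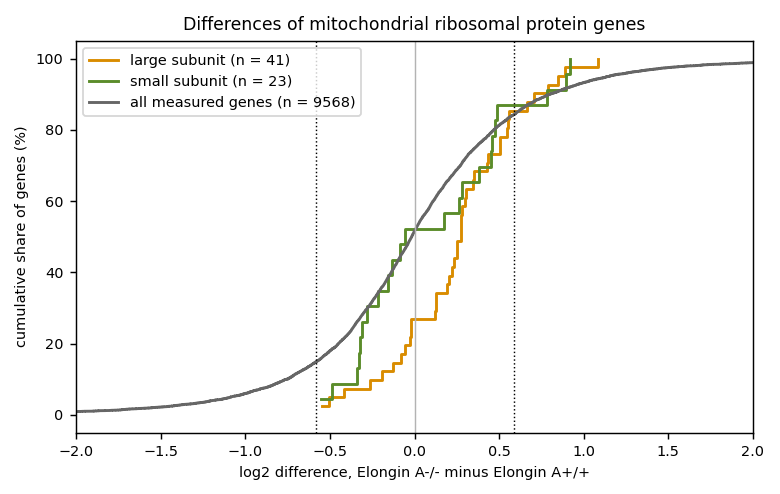
Cumulative share of genes (vertical axis, percent) against the log2 difference, Elongin A-/- minus Elongin A+/+ (horizontal axis), for large subunit genes, small subunit genes and all measured genes; dotted lines mark 1.5-fold. The large subunit curve lies right of all genes around its median of 0.27, the small subunit curve crosses 0 near its middle (median -0.06), and neither reaches 1.5-fold lower.

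By subunit, most large subunit genes were higher in Elongin A-/- bodies, while small subunit genes lay about evenly on both sides. Of 41 measured large subunit genes 30 were higher (73.2%) and the median was 0.27, with quartiles of -0.02 and 0.50. Of 23 small subunit genes 11 were higher (47.8%) and 12 lower, with a median of -0.06 and quartiles of -0.30 and 0.46. The difference between the subunits was not tested, and the small subunit median changed sign to 0.059 over genes with 1 probe. Counting Mrps30 with the large subunit, where its protein sits in structures of the mammalian mitochondrial ribosome, and leaving out Mrps36, whose protein is also known as a component of the oxoglutarate dehydrogenase complex, gave -0.06 and 0.27. By origin, the 37 members with a bacterial counterpart had a median of 0.25 with 24 higher, and the 27 found only in mitochondria had a median of 0.25 with 17 higher. With the median of each chromosome removed, as described below, these medians were 0.34 and 0.14, in that order. Without chromosomes 6, 8 and 11 they were 0.20 and 0.25. How the 2 origins compare thus depended on the setting and was not tested. Among genes with a bacterial counterpart, 17 of 24 large subunit genes were higher (median 0.26) and 7 of 13 small subunit genes (median 0.18). Among mitochondrion-specific genes, 13 of 17 large subunit genes were higher (median 0.27) and 4 of 10 small subunit genes (median -0.21).

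**Figure D2:**
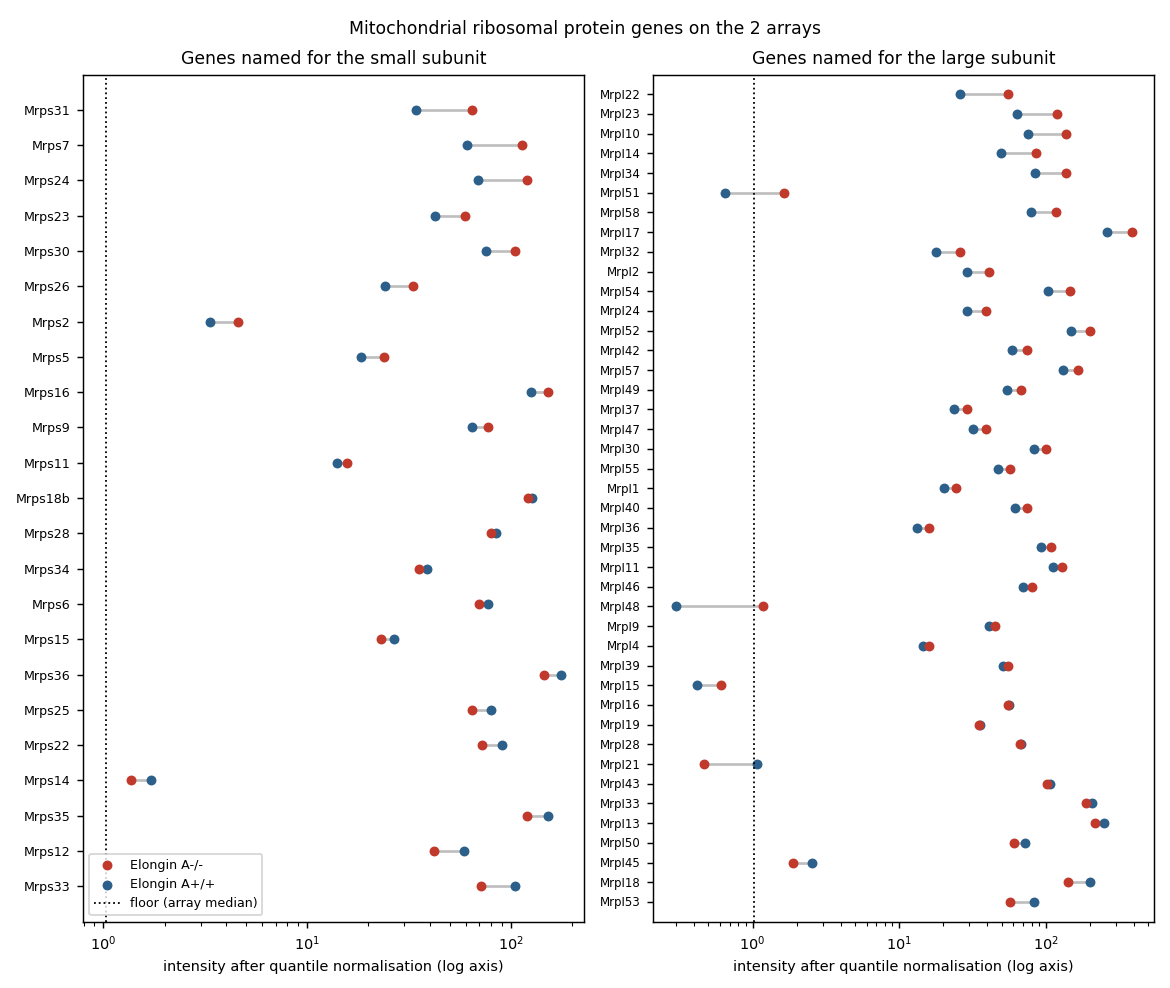
Intensity after quantile normalisation (horizontal axes, log scale) of each member in Elongin A-/- bodies (red) and Elongin A+/+ bodies (blue), ordered by the floored difference within each panel, with the floor of 1.03 as a dotted line. Red lies right of blue down to Mrps11 in the small subunit panel and, among large subunit genes, down to Mrpl15, which is below the floor on both arrays.

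Genes for the head of the small subunit, the part that moves as messenger and transfer RNAs pass, lay at both ends of the range. Mrps31, a head protein found only in mitochondria, had an intensity of 64.8 in Elongin A-/- bodies and 34.2 in Elongin A+/+ bodies (1.89-fold higher, log2 0.92). Mrps7, the counterpart of bacterial S7, had 113 against 60.6 (1.86-fold), and Mrps24, the counterpart of bacterial S3 at the entry for messenger RNA, had 119 against 69.3 (1.72-fold). These 3 were the highest small subunit genes, and Mrps31 lies on chromosome 8 and the other 2 on chromosome 11. At the other end Mrps33 had 71.7 in Elongin A-/- bodies and 105 in Elongin A+/+ bodies (log2 -0.55), and Mrps35 had 120 against 152 (-0.34). Both of these lie on chromosome 6. A dimmer probe of Mrps33, at 1.61 in Elongin A-/- and 1.72 in Elongin A+/+ bodies, gave -0.09. Mrps9, the counterpart of S9, had 77.1 against 64.3 (0.26), and Mrps14, near the floor, had 1.36 against 1.72 (-0.33). Over these 7 head genes, grouped after the values were seen, the median was 0.26 with 4 higher and 3 lower.

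None of the other small subunit genes was 1.5-fold apart. Mrps12, the counterpart of the decoding protein S12, was the next lowest, with 42.1 in Elongin A-/- bodies and 59.0 in Elongin A+/+ bodies (log2 -0.49). Mrps22 (72.1 against 90.02) followed at -0.32, then Mrps25 (64.6 against 80.1) at -0.31 and Mrps36 (146 against 177) at -0.28. These 4 differences are each within or close to the SD between probes. Mrps34, known in the mouse to be needed for a stable small subunit, had 35.4 against 38.8 (-0.13). Mrps28, Mrps6 and Mrps15 lay between -0.08 and -0.22, and Mrps18b, the only gene of its family named here, had 122 against 127 (-0.06). Among the higher ones, Mrps23 had 59.7 against 42.6 (0.49), Mrps30 104 against 75.1 (0.47), Mrps26 33.2 against 24.2 (0.46) and Mrps2 4.56 against 3.34 (0.45). Mrps5 (0.38), Mrps16 (0.28) and Mrps11 (0.18) completed the set.

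The peptide exit tunnel, through which the new chain leaves the large subunit, held the member with the widest margin. Mrpl22, which lines the tunnel, had 55.4 in Elongin A-/- bodies and 26.1 in Elongin A+/+ bodies (2.12-fold higher, log2 1.08). Mrpl23, a protein at the tunnel exit, had 119 against 63.9 (1.85-fold, 0.89). Mrpl22 lies on chromosome 11, and Mrpl23 lies on chromosome 7. Mrpl17, the brightest member, had 385 against 262 (0.55), and Mrpl24, at the exit, 39.1 against 29.0 (0.43). Mrpl47, the counterpart of bacterial L29, had 39.0 against 32.0 (0.28), and Mrpl4 15.9 against 14.5 (0.13). Mrpl45, which faces the inner membrane at the exit, was the only one of these 7 that was lower, with the dim values 1.89 in Elongin A-/- and 2.52 in Elongin A+/+ bodies (-0.42). Their median was 0.43, in a group made after the values were seen.

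Stalk genes, whose proteins help bind translation factors or release transfer RNA, differed among themselves. Mrpl10, the base of the factor-binding stalk, had 137 in Elongin A-/- bodies and 76.2 in Elongin A+/+ bodies (1.80-fold higher), and Mrpl11, next to it, 130 against 111 (0.22). Mrpl1, the other stalk, had 24.4 against 20.2 (0.27). Mrpl53, a mitochondrion-specific protein of the stalk region, was the lowest large subunit gene, with 56.9 against 83.0 (-0.55). Mrpl10 lies on chromosome 11 and Mrpl53 on chromosome 6. At the central protuberance, which contacts transfer RNA, Mrpl18 was lower, with 142 in Elongin A-/- and 201 in Elongin A+/+ bodies (-0.50). Mrpl40 (74.0 against 62.1) and Mrpl46 (79.9 against 69.5) were slightly higher, and Mrpl48 was near the floor in Elongin A-/- bodies (1.17) and below it in Elongin A+/+ bodies. The stalk and central protuberance groups were also made after the values were seen.

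Other large subunit genes at least 1.5-fold higher were Mrpl14, Mrpl34 and, as a bound, Mrpl51. Mrpl14, at the interface with the small subunit, had 85.2 in Elongin A-/- bodies and 49.3 in Elongin A+/+ bodies (1.73-fold), and Mrpl34 had 137 against 84.1 (1.63-fold). Mrpl51 had 1.63 against 0.648, below the floor in Elongin A+/+ bodies, so it was at least 1.58-fold higher. Just short of 1.5-fold, Mrpl58, the peptidyl-tRNA hydrolase that frees stalled ribosomes and is built into the large subunit, had 118 against 79.9 (1.47-fold). Mrpl32, known as a substrate of the m-AAA protease that must be trimmed before it is built in, had 25.9 against 17.8 (1.46-fold). Mrpl2, a protein close to the peptidyl transferase centre, had 41.1 against 28.9 (1.42-fold), and Mrpl54 147 against 104 (1.42-fold).

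The bright members were not all higher. After Mrpl17, the next brightest were Mrpl13 (217 in Elongin A-/- bodies, against 249 in Elongin A+/+ bodies), Mrpl33 (188 against 206), Mrpl52 (200.2 against 149) and Mrpl18. Mrpl13 (-0.20) and Mrpl33 (-0.13) were lower by less than the SD between probes, and Mrpl52 was higher by 0.43. Mrpl50 was lower at -0.26, while Mrpl43, Mrpl28, Mrpl19 and Mrpl16 lay between -0.08 and -0.02. Mrpl42, Mrpl57, Mrpl37, Mrpl30, Mrpl55, Mrpl36, Mrpl35, Mrpl9 and Mrpl39 lay between 0.12 and 0.35. Mrpl21 was at the floor on 1 array (0.468 in Elongin A-/- and 1.07 in Elongin A+/+ bodies), and Mrpl15 was below it on both (0.607 and 0.419). The 13 further genes of these names known for the mouse ribosome, among them Mrpl12 and Mrps27, were not analysed here.

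Mrpl49 was the member whose probes disagreed most. Its brighter probe had 67.2 in Elongin A-/- bodies and 54.4 in Elongin A+/+ bodies (log2 0.31), and its other probe 20.8 against 64.5 (-1.63). The direction of Mrpl49 therefore depends on the probe, and its mean over probes was lower. The 63 members other than Mrps33 and Mrpl49 had 1 probe each, so no such check exists for them.

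Most members on chromosomes 6, 8 and 11 lay on the side to which all genes of these chromosomes were shifted. Over all measured genes the median log2 difference was 0.43 on chromosome 8 (522 genes), 0.41 on chromosome 11 (803 genes) and -0.26 on chromosome 6 (518 genes), and between -0.13 and -0.0046 on every other autosome and on X. The 2 members on chromosome 8, Mrpl34 and Mrps31, were both at least 1.5-fold higher. Of 8 members on chromosome 11, Mrpl22, Mrps7, Mrpl10 and Mrps24 were at least 1.5-fold higher, Mrpl58, Mrps23 and Mrpl55 were higher by less, and Mrpl45 was lower, with a median of 0.67. So 6 of the 10 members on these 2 chromosomes were at least 1.5-fold higher, where 36.3% of all their measured genes were. Of 7 members on chromosome 6, Mrps33, Mrpl53, Mrps35, Mrps25 and Mrpl19 were lower and Mrpl35 and Mrpl51 higher, with a median of -0.31. Mrpl19, at -0.02, lay above the median of that chromosome. What shifted these chromosomes was not tested.

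Away from these 3 chromosomes the group stayed higher, but few members passed 1.5-fold. Of 47 such members 30 were higher (63.8%, against 44.5% of 7719 genes there), and the median was 0.22 against -0.05. Only Mrpl23 and Mrpl14 were at least 1.5-fold higher (4.26%, against 12.6%), and none was 1.5-fold lower (15.4%). With the median of each chromosome removed, the median of the 64 members was 0.23, 42 lay above their chromosome, 5 were at least 1.5-fold higher (7.81%, against 14%) and 1, Mrpl45, 1.5-fold lower (1.56%, against 13.9%). Of the 8 members at least 1.5-fold higher and above the floor on both arrays, Mrpl23 (0.90), Mrpl14 (0.82) and Mrpl22 (0.67) were still so on that scale, while Mrps31 was at 0.49, Mrps7 at 0.48, Mrpl10 at 0.44, Mrps24 at 0.37 and Mrpl34 at 0.27. Mrps33 and Mrpl53 came to -0.29 and -0.28, and Mrpl45 to -0.83. Removing chromosome medians thus changed the order of the members and changed the median of the group by little.

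**Figure D3:**
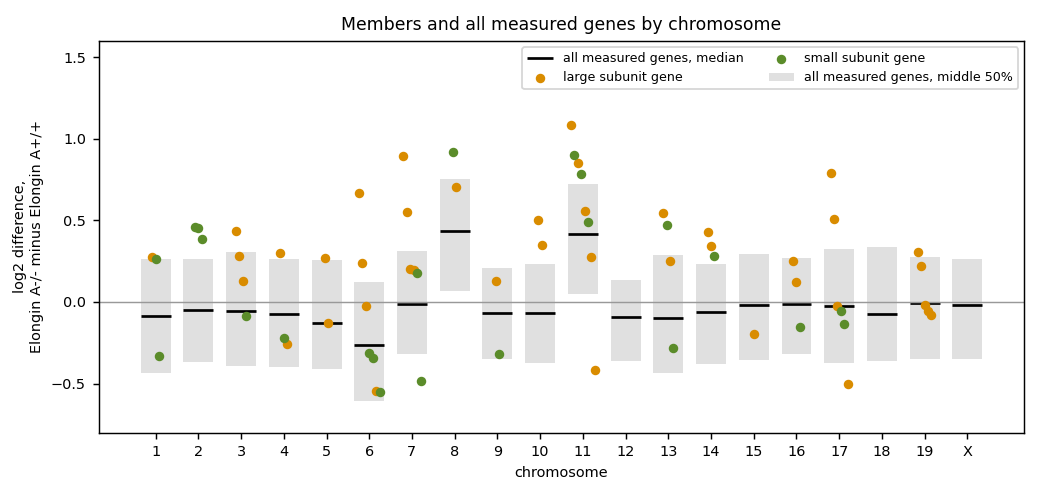
Log2 difference, Elongin A-/- minus Elongin A+/+ (vertical axis), of each measured member by chromosome (horizontal axis), over the middle 50% (grey bars) and median (black lines) of all measured genes of that chromosome. Chromosomes 8 and 11 stand above 0 and chromosome 6 below it, for all genes and for most members on them.

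Some members share a start region with a neighbour that runs the other way. Of the 57 members with an annotated start, 22 had a head-to-head neighbour that starts within 1000 bases, in 21 pairs, and 15 pairs had both genes measured. Both genes had the same sign in 11 of the 15 pairs (73.3%), where 59.0% of 315 such pairs over all measured genes did, and 11 pairs differed by less than the SD between probes (73.3%, against 53.0% of all pairs). The direction of Mrpl49 depends on its probe, and without its pair both counts were 10 of 14. Mrps11 and Mrpl46, members that face each other, were at 0.18 and 0.20. Mrps12 (-0.49) faces Sars2, with 10.2 in Elongin A-/- and 11.2 in Elongin A+/+ bodies (-0.13), and Mrpl18 (-0.50) faces Tcp1, a chaperonin subunit gene (-0.16). Mrps7 (0.90) faces Gga3 (0.40), and Mrpl47 (0.28) faces Ndufb5, a complex I subunit gene (0.23). An opposite case was Mrpl43 (-0.08), which faces Twnk, the gene for the helicase of mitochondrial DNA, with the dim values 3.34 against 1.18 (2.82-fold higher). The other opposite cases were Mrpl51 (0.66, a bound) with Ncapd2 (-0.12), Mrpl40 (0.25) with Hira (-0.07) and Mrpl21 (-0.06, at the floor) with Ighmbp2 (0.18). The pairs over all measured genes were not matched to the members for level or spread. These pairs were examined with the values already known, and their genes share a chromosome and its shift.

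Other genes of the mitochondrial ribosome and its supply did not share 1 pattern. Of 4 ribosomal protein genes with other symbols, Dap3 (143 in Elongin A-/- bodies, against 125 in Elongin A+/+ bodies), Chchd1 and Gadd45gip1 (21.9 against 16.1) were higher by less than 1.5-fold, and Ptcd3, a small subunit gene on chromosome 6, was lower (11.8 against 21.3, -0.85). Of 17 genes for assembly of the ribosome and modification of its RNA, 12 were higher (70.6%), 5 of them at least 1.5-fold (29.4%, where 15.8% of all measured genes were), and 2 were at least 1.5-fold lower (11.8%, against 14.8%), with a median of 0.19. Over all measured genes 48.4% were higher, which is also the background for the next lists. Eral1, which binds the small subunit RNA during assembly, had 6.57 against 2.03 (3.23-fold higher), and Mrm1, a methyltransferase of the large subunit RNA, 7.73 against 2.63 (2.94-fold). Both lie on chromosome 11, and came to 1.28 and 1.14 above its median. Mrm3 (7.85 against 5.17, 0.60) lies there too, and came to 0.19. On that chromosome 36.4% of all measured genes were at least 1.5-fold higher. The median of the list was 0.08 without the genes on chromosomes 6, 8 and 11, and 0.19 with chromosome medians removed. The values of Eral1 and Mrm1 are dim, and a higher floor, at the 75th percentile, left differences of 0.34 and 0.57. Mtg2, a GTPase of large subunit assembly, was lower (2.95 against 6.26, -1.08), and was at -0.27 with that higher floor.

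Translation factors and related genes of the organelle had a median of 0.23, with 10 of 13 higher. Gtpbp3, which modifies mitochondrial transfer RNA, was at least 2.85-fold higher (2.93 in Elongin A-/- bodies, against 0.904, below the floor, in Elongin A+/+ bodies), and its partner Mto1 had 6.54 against 3.57 (0.87, and 0.33 with the higher floor). Gtpbp3 lies on chromosome 8, and its bound came to 1.08 above the median of that chromosome. Mtfmt, which formylates the initiator transfer RNA, was lower (1.35 against 4.40, -1.70), as was Oxa1l, which inserts new chains into the inner membrane (5.08 against 8.86, -0.80). Gtpbp3 and Mtfmt lay below the higher floor on both arrays. Of 16 genes for charging mitochondrial transfer RNA 11 were higher, with a median of 0.07. Tars2, the threonyl-tRNA synthetase, had 9.84 against 4.41 (1.16), and Gatb, a subunit of the amidotransferase that makes glutaminyl-tRNA, was at least 2.85-fold higher (2.92 against 0.749). Pars2 had 11.2 against 7.52 (0.57), and Aars2 3.16 against 4.53 (-0.52). Gatb and Aars2 also lay below the higher floor on both arrays.

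Genes that copy mitochondrial DNA or make and process its RNA had a median of 0.11, with 11 of 16 higher. None was at least 1.5-fold lower, where 14.8% of all measured genes were. Their median was 0.0079 without the genes on chromosomes 6, 8 and 11, and 0.14 with chromosome medians removed. Besides Twnk, Elac2, which trims transfer RNA ends, had 15.1 in Elongin A-/- bodies and 7.59 in Elongin A+/+ bodies (0.99), and Pnpt1, an RNA-degrading enzyme, 49.8 against 31.9 (0.64). Both of these lie on chromosome 11. Of 6 measured regulators of mitochondrial biogenesis, Esrra, an orphan nuclear receptor, was higher (7.75 against 3.53, 1.13, and 0.58 with the higher floor). Gabpa, the DNA-binding subunit of GABP, was lower at dim values (1.20 against 1.94, -0.69). Myc had 22.7 against 17.0 (0.42), Nrf1 6.02 against 4.90 (0.30) and Yy1 76.6 against 78.1 (-0.03), and Ppargc1a was below the floor on both arrays.

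Nuclear genes for oxidative phosphorylation subunits, whose complexes also need the products of mitochondrial translation, had a median of 0.17, between that of the members (0.25) and that of all measured genes (-0.02). Of 57 measured genes 39 were higher (68.4%, where 64.1% of members and 48.4% of all genes were). At least 1.5-fold higher were 7 (12.3%, against 15.8% of all genes and 10.6% of genes at the members' level), and 2 were at least 1.5-fold lower (3.51%, against 14.8% and 7.6%). Ndufb3 had 12.4 in Elongin A-/- bodies and 5.61 in Elongin A+/+ bodies (1.15), Ndufs7 118 against 65.8 (0.85) and Uqcr10 269 against 159 (0.76). Uqcr10 lies on chromosome 11 and was 0.35 above its median. Of the others at least 1.5-fold higher, Atp5g1 lies on chromosome 11, and Ndufb7 and Ndufa13 on chromosome 8. They came to 0.30, 0.23 and 0.22 above the medians of their chromosomes. On chromosomes 8 and 11, 36.3% of all measured genes were at least 1.5-fold higher. With chromosome medians removed, 5 genes of the list were at least 1.5-fold higher (8.77%, against 14% of all genes). Cytosolic ribosomal protein genes showed almost no shift after quantile normalisation, with 31 of 59 higher and a median of 0.0043. In the values as deposited their median was 0.11, against 0.07 over all measured genes. At least 1.5-fold higher were 3 (5.08%, against 15.8% of all genes), Rpl38 (2439 against 1400, 0.80), Rplp0 (1390 against 916, 0.60) and Rps10 (1969 against 1298, 0.60). Rpl38 lies on chromosome 11 and was 0.39 above the median of that chromosome, and Rplp0 was at 0.20 as the mean over its probes. The SD of the cytosolic ribosomal protein genes, 0.27, was smaller than the 0.40 of the mitochondrial ribosomal protein genes. These SDs are not matched for level, since the median intensities in Elongin A-/- bodies were 1415 and 66.9. With chromosome medians removed the medians were 0.23 for the mitochondrial ribosomal protein genes, 0.19 for the oxidative phosphorylation genes and 0.09 for the cytosolic ribosomal protein genes. No difference between these lists was tested.

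**Figure D4:**
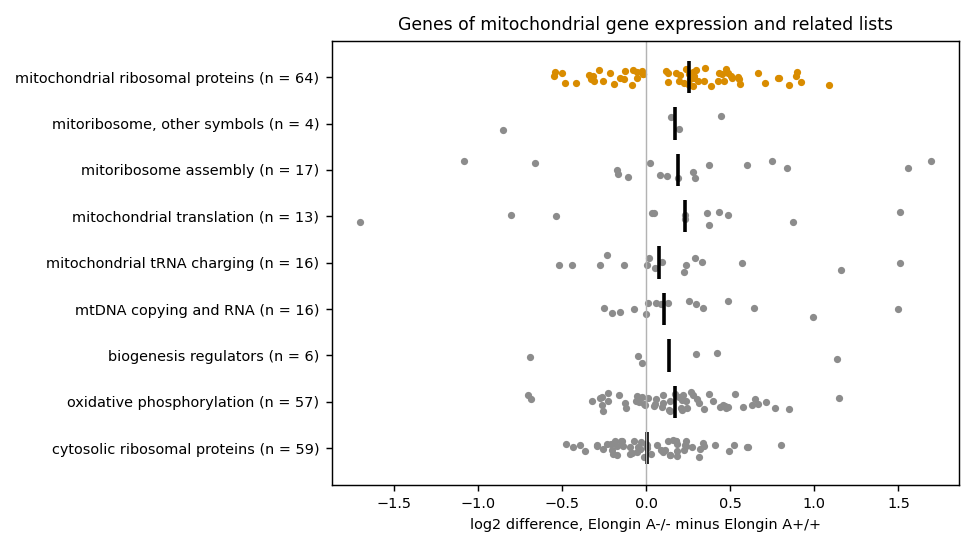
Log2 difference, Elongin A-/- minus Elongin A+/+ (horizontal axis), of each measured gene (points) in the mitochondrial ribosomal protein set and related lists (rows), with list medians as black bars. The medians run from 0.0043 for cytosolic ribosomal proteins to 0.25 for mitochondrial ribosomal proteins, and the points of every list lie on both sides of 0.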

How the data were processed

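Total RNA of embryoid bodies was measured on 2 arrays, 1 per genotype. Per the labels' protocols, 1 µg of RNA was transcribed to digoxigenin-labelled RNA and detected by chemiluminescence. The deposited table holds linear intensities, never below 0, and array medians near 1 point to scaling by the authors. How they corrected background, normalised and filtered is not stated in the labels or the table. The genotype of each array is that of its title.

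The platform annotation gave gene names: 14253 probes have 1 symbol, 243 several and 17944 none. No probe with several symbols held a member symbol. The 10th, 25th and 75th percentiles of the deposited values differed between arrays by -0.16, -0.12 and 0.15 on the log2 scale, so log2 intensities were quantile normalised, which would hide a shift of most genes in 1 direction. A gene was represented by its brightest probe, values under the array median were set to it before differences were taken, and calls were made at 1.5-fold and 2-fold with no p-value. Chromosomes came from RefSeq on GRCm38.p6 through gene identifiers (65 of 65 members), and gene order and start regions from RefSeq too, with the region listed for a gene before any other. The members, lists, subunit and origin classes and motifs were chosen with earlier results of these data known, and the NRF1 and YY1 motifs were shortened after a first search. Values were given in full for the 8 largest differences per direction, the 3 widest bounds, the 5 brightest members, members with 2 probes and Mrps18 genes, and in each related list for up to 3 genes with the largest difference and any at least 2-fold apart; further genes named were chosen after their values were seen. Scaling, floor, choice of probes and chromosome were varied in 11 alternatives, and the placing of Mrps30 and Mrps36 in 1 added after the data were seen. The processing was tested on simulated arrays with differences of 2-fold or more, set in genes with 1 probe well above the floor. They held no smaller set differences and no shift of whole chromosomes, so the test does not cover these. Python 3.11.15, numpy 2.4.6, pandas 2.3.3, scipy 1.17.1 and statsmodels 0.14.6 were used.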

Additional observations from a re-analysis of the deposited data

How the results depend on the processing

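The median of the mitochondrial ribosomal protein genes was above 0 under all 11 alternatives, from 0.19 to 0.32, and their share higher by any margin lay between 62.5% and 68.8%. With the values as deposited the median of the members was 0.32 (0.07 over all measured genes), that of large subunit genes 0.36, 14 members were at least 1.5-fold higher (19.5% of all genes) and 2 at least 2-fold higher; 62.4% of all genes 1.5-fold apart were then higher, against 51.6% in the values reported. With the arrays centred on their bright probes, 2 members were at least 1.5-fold lower and the median of the cytosolic ribosomal protein genes was -0.016. Both with a floor at the 25th percentile and without any floor, 3 members were at least 2-fold higher, 1 at least 1.5-fold lower and 1 at least 2-fold lower. With the mean over probes 1 member was at least 1.5-fold lower. With genes of 1 probe only, the small subunit median was 0.059 and that of the biogenesis regulators -0.028, as it also was without chromosomes 6, 8 and 11. With chromosome medians removed 5 members were at least 1.5-fold higher, 1 at least 1.5-fold lower and 0 at least 2-fold higher. Without chromosomes 6, 8 and 11, 2 members were at least 1.5-fold higher and 0 at least 2-fold higher, with 47 members left. The cause of these changes was not tested beyond the genes each setting leaves out. Of 25 members whose values were given in full by rule, Mrpl33 and Mrpl49 changed sign under at least 1 alternative. Members outside that count changed sign too. Mrpl16, Mrpl19 and Mrpl28 were higher in the values as deposited (0.07, 0.06 and 0.05), and Mrpl55 was lower with chromosome medians removed (-0.14). No paired analysis was possible because each genotype has 1 array, and for the same reason no array could be left out. The signal limits Mrps14, Mrpl45, Mrpl21, Mrpl48, Mrpl51 and Mrpl15, which lie near or below the floor.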
